A study of Mus musculus with 6 samples.

Results

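Bone morphogenetic proteins (BMPs) are secreted ligands of the TGF-beta superfamily. They signal through paired type 1 and type 2 receptors, among them BMPR2, to the receptor-activated Smads, and a set of secreted antagonists binds the ligands before they reach a receptor. In the adult lung BMP signalling is known for its part in vascular quiescence, and inherited BMPR2 mutations are a known cause of pulmonary arterial hypertension. The genes described here are 5 BMP ligands (Bmp2, Bmp4, Bmp5, Bmp6 and Bmp7), the BMP antagonists gremlin 1 (Grem1), noggin (Nog) and chordin (Chrd), the activin antagonist follistatin (Fst), and Inhba, whose product pairs with itself to form activin A. They were taken by name, as every probe set of the array whose only annotated gene symbol was one of these 10. These are 10 of the 18193 genes so named on the array, and they had 16 of its 45037 probe sets.

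Whole lung was profiled on 6 one-colour arrays, each holding RNA pooled from 3 mice. The groups were lungs of SM22-dnBMPR2 inducible transgenic mice after 1 week of activation, the same line after 8 weeks, and controls, with 1 female and 1 male pool in each. The transgene is a dominant-negative BMPR2 under an inducible system whose transactivator, rtTA, is driven by the SM22 (Tagln) promoter of smooth muscle, so only part of the cells in whole lung were targeted. Controls carried the transactivator alone, per the series description. The label of the male control says SM22-rtTA only, while that of the female control names the FVB/N strain and no transgene, and the same control pair served both durations. The age of the mice, the inducer and what the controls were given are not given in the sources used here. All transgenic mice had raised right ventricular pressure, per the series description. Fewer cells of a type and less RNA per cell cannot be told apart in these samples.

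Values are log2 intensities after quantile normalization, with signals below 15.5 (log2 3.95) raised to that floor. The fit was made on the 27022 probe sets with a mean above the 40th percentile (log2 5.15), and 11 of the 16 member probe sets, from 8 of the 10 genes, were in it. Nog, Chrd, 2 of the 3 Bmp7 probe sets and 1 of the 2 Inhba probe sets lay below and were left out of this fit. A probe set's brightness depends on its probes, so levels were not ranked between genes. No member passed at an adjusted p below 0.05 (limma, group and sex as terms) in any comparison. The verbs rose and fell are therefore not used of the members, and each is given by its values.

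The promoters of Bmp4 and Bmp6 are shown because these 2 ligands stood lower together after 8 weeks. RefSeq sequences for build GRCm38.p6, 250 bases before to 50 after the gene start, matched 6 of the 10 genes (Bmp4, Bmp5, Bmp6, Grem1, Chrd and Inhba). The window of Bmp4 is chr14:46390620-46390919 on the minus strand and that of Bmp6 is chr13:38345466-38345765 on the plus strand. Both are printed 5′ to 3′, and capitals mark the Smad-binding motif CAGAC or its reverse complement GTCTG, or the GC-rich Smad motif GGCGCC.
Bmp4: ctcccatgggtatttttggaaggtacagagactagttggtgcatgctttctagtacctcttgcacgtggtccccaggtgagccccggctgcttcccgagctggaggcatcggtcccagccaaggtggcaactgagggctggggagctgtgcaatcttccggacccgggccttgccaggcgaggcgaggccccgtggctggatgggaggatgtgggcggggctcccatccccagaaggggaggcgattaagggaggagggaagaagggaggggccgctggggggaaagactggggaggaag
Bmp6: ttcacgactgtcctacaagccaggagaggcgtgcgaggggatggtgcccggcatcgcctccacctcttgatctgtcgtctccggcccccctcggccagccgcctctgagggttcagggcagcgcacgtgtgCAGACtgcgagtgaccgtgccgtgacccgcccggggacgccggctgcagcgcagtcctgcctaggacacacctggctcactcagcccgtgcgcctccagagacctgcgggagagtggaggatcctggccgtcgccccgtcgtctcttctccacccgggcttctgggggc
The Bmp4 window held neither motif and the Bmp6 window held 1 CAGAC match, at position −119 from the gene start. Over all 32851 promoters of this length, 49.6% held CAGAC on either strand and 11.9% held GGCGCC. Among the other matched members, Grem1 had 2 CAGAC matches and 1 GGCGCC match, Chrd had 1 of each, Bmp5 had 1 CAGAC match and Inhba had neither. G and C made up 64% of the Bmp4 window and 69.3% of the Bmp6 window, 43.3% for Bmp5, 47.7% for Inhba, 70.7% for Grem1 and 78.3% for Chrd. A match describes these letters and is not evidence of binding.

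After 8 weeks of activation the ligands lay on both sides of control, and none passed in limma. Bmp4 and Bmp6 stood lower than in controls and Bmp2 stood higher, each with no overlap between the 8 week and control pools, while Bmp5 differed little on its brightest probe set. The 1 week pools were close to controls for these 4 genes. For Bmp7 the fitted change at 8 weeks was −0.58, with −1.53 in females and 0.37 in males. How many of all probe sets had groups without overlap was not counted in any comparison. With so few pools a group, such separation can readily arise by chance. A lack of overlap therefore describes the pools and does not set a ligand apart from other genes.

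Bmp4, a ligand that shapes lung branching in development and is made by several adult lung cell types, had log2 intensities of 10.28 and 9.68 in the female and male 1 week pools, 9.63 and 9.41 in the 8 week pools, and 10.24 and 9.96 in the control pools. The 8 week pools were the lowest of the 6, and the male 1 week pool lay nearest to them. Group means were 9.52 ± 0.16 at 8 weeks and 10.10 ± 0.20 in controls (SD, n = 2 pools each). The fitted log2 change was −0.58 ± 0.16 (standard error, 95% interval −0.99 to −0.17), or −33.2% in intensity, with −0.61 in females and −0.55 in males. It did not pass after adjustment over all probe sets (limma, adjusted p = 0.137, unadjusted p = 0.0153).

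Bmp6, which is closely related to Bmp5 and Bmp7 and is known as the liver endothelial signal that sets hepcidin, read 10.06 and 9.74 in the female and male 1 week pools, 9.75 and 8.92 in the 8 week pools, and 10.14 and 9.96 in the control pools. The male 8 week pool was far below the rest, while the female 8 week pool lay below both controls and close to the male 1 week pool. Means were 9.33 ± 0.59 at 8 weeks and 10.05 ± 0.13 in controls (SD, n = 2 pools each). The fitted change was −0.71 ± 0.20 (standard error, 95% interval −1.24 to −0.18), or −0.38 in females and −1.04 in males (limma, adjusted p = 0.148, unadjusted p = 0.0186). Leaving out the male 8 week pool gave −0.42 and leaving out the female 8 week pool −1.004.

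Bmp2, the nearest relative of Bmp4 and a ligand of the same receptors, went the other way. It read 6.41 and 6.73 in the female and male 1 week pools, 7.02 and 7.33 in the 8 week pools, and 6.54 and 6.72 in the control pools. Both 8 week pools were above all 4 other pools, and the males were higher than the females in every group. Means were 7.17 ± 0.22 at 8 weeks and 6.63 ± 0.13 in controls (SD, n = 2 pools each). The fitted change was 0.54 ± 0.13 (standard error, 95% interval 0.20 to 0.89), 1.45-fold, with 0.47 in females and 0.61 in males, and it did not pass (limma, adjusted p = 0.122, unadjusted p = 0.0105).

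These 3 genes were the member probe sets with an unadjusted p below 0.05 at 8 weeks, 3 of 11 tested, where 6216 of all 27022 probe sets, 23.0%, had one. Limma called 161 of the 27022 at an adjusted p below 0.05, 0.596%, and 0 of the 11 members. The count over all probe sets was 0 without either control pool, either 1 week pool or the female 8 week pool, and 1071 without the male 8 week pool. With variances moderated by a trend and robustly, Bmp4 (adjusted p = 0.0344 in limma) and Bmp6 (0.0407) passed and Bmp2 did not (0.137), and that fit called 1916 probe sets, 7.09% of all. Among all tested probe sets, 10.5% had a change as low as that of Bmp4 or lower, 8.16% one as low as that of Bmp6, and 91.8% one no higher than that of Bmp2. The median change of the 11 member probe sets was −0.38, with 9 lower and 2 higher, beside a median of 0.03 over all tested probe sets. The 9 lower ones are not 9 genes, since Bmp5 had 3 of them and Fst 2. A change of at least 1.5-fold in the same direction in both sexes was seen for 0 members at 8 weeks against control, beside 3.53% of all probe sets higher and 4.91% lower. Bmp4 came close, with −0.61 in females and −0.55 in males where 1.5-fold is a log2 change of 0.58 in size.

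**Figure D1:**
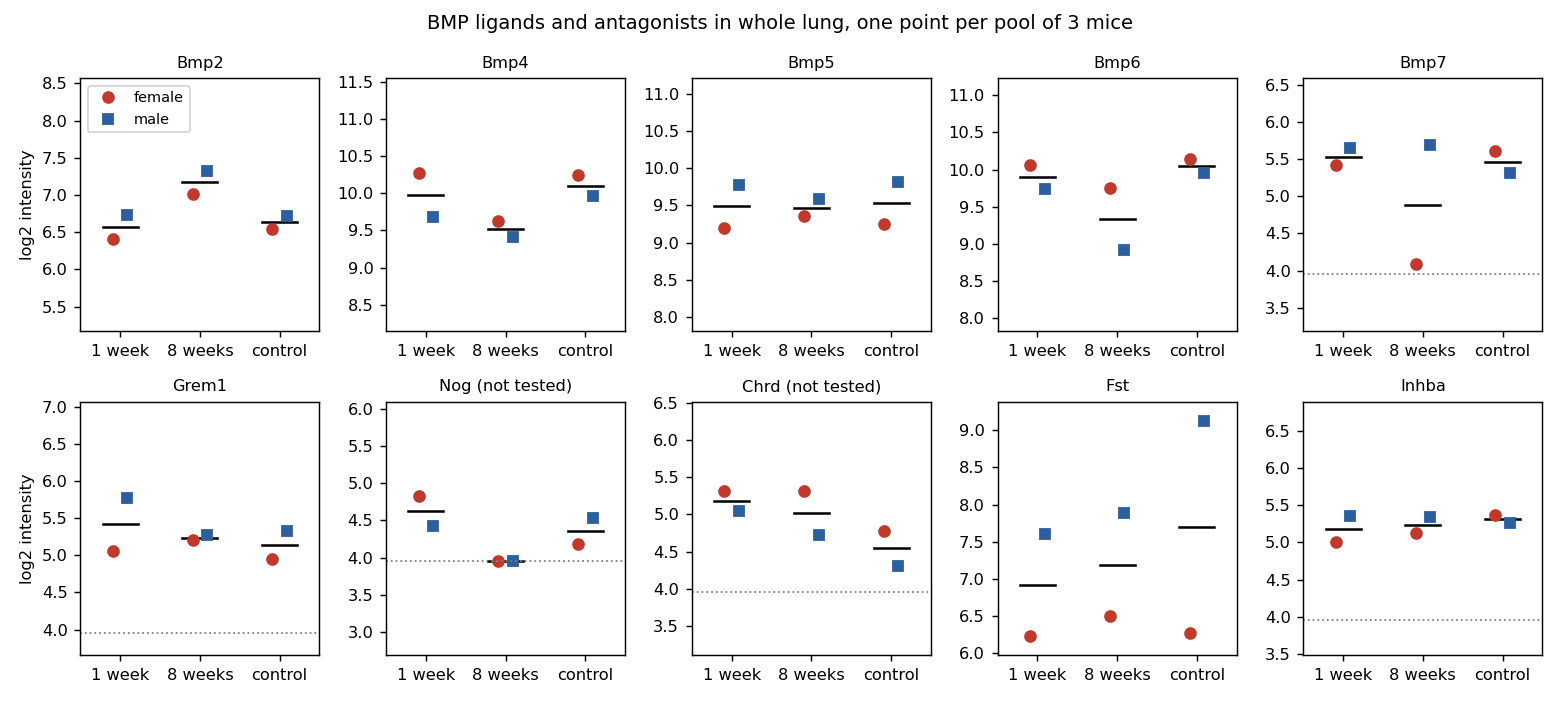
Log2 intensity (vertical axes, each spanning the same number of log2 units) of the brightest probe set of each of the 10 genes in the 1 week, 8 week and control pools. Circles are female and squares male pools of 3 mice, bars are group means, and the dotted line is the floor at log2 3.95. Bmp2 is highest and Bmp4 lowest in the 8 week pools, and the male control pool stands apart for Fst.

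The normalization shifts the whole distribution and so bears on these values. With intensities as deposited the median change of all tested probe sets at 8 weeks was −0.13, and with arrays scaled to a common median it was 0.14. Relative to the median, which one factor per array leaves in place, Bmp4 stood at −0.56, Bmp6 at −0.68 and Bmp2 at 0.43, against −0.61, −0.74 and 0.51 after quantile normalization. Before that correction the Bmp2 change as deposited was 0.29 (limma, adjusted p = 0.285).

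Markers of cell types were summed over the same samples. The summed intensity of 12 endothelial markers, all tested and none at the floor on every array, was 24402 and 22915 in the female and male 8 week pools and 27927 and 27463 in the control pools, with a median log2 change of −0.17. Of the 12 endothelial markers, 0 moved by 1.5-fold in both sexes, beside 3.53% of all probe sets higher and 4.91% lower. For 8 smooth muscle markers the sums were 8110 and 7593 at 8 weeks and 10987 and 9120 in controls. Of these 8, 2 were at least 1.5-fold lower in both sexes, and the median log2 change was −0.37. Macrophage markers, 9 of 10 measured, summed to 8001 and 6876 at 8 weeks and 1529 and 2526 in controls, and 8 of the 9 were at least 1.5-fold higher in both sexes. Neutrophil markers, 8 of 10 measured, summed to 9662 and 11033 at 8 weeks and 3714 and 3684 in controls. At least 1.5-fold higher in both sexes were 5 of the 8, and 3 passed in limma. Cardiac muscle markers, 12 of 12 measured, summed to 3115 and 7096 at 8 weeks and 12900 and 12587 in controls. At least 1.5-fold lower in both sexes were 8 of the 12, with a median log2 change of −1.60. Alveolar type 1 sums spanned 23999 to 24860 at 8 weeks and 23835 to 23870 in controls. For the other lists the median log2 change at 8 weeks was −0.46 for club and ciliated airway and −0.03 for fibroblast markers. It was 0.23 for alveolar type 2 and 0.03 for mesothelial markers. What part these shifts had in the ligand values was not tested.

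**Figure D2:**
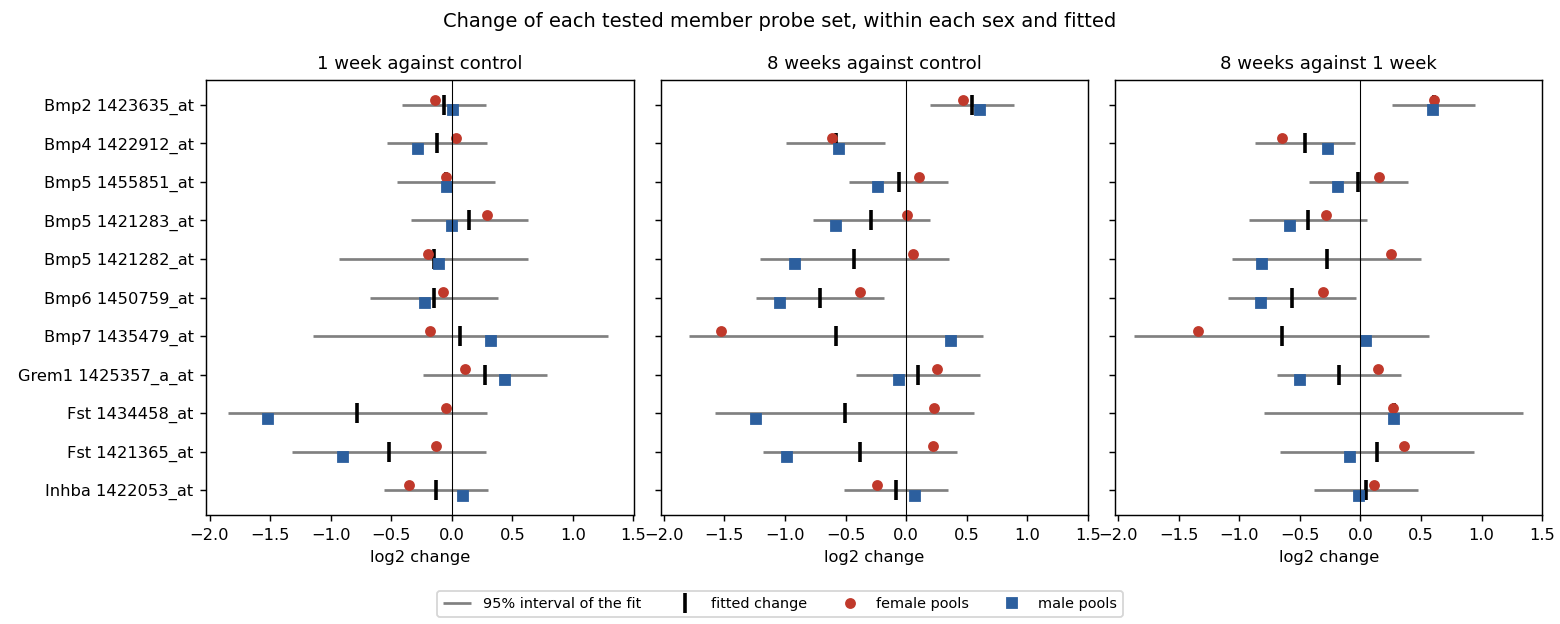
Log2 change (horizontal axis) of the 11 tested member probe sets in 3 comparisons. Circles are the change between female pools, squares between male pools, ticks the limma estimate and grey lines its 95% interval. At 8 weeks against control the intervals of Bmp2, Bmp4 and Bmp6 lie clear of 0 before adjustment, and the 2 sexes lie on opposite sides of 0 for the other 8 probe sets, those of Bmp5, Bmp7, Grem1, Fst and Inhba.

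Bmp5, expressed by lung mesenchyme in the developing mouse, was measured by 3 probe sets that differed in what they showed. The brightest (1455851_at) read 9.20 and 9.77 in the female and male 1 week pools, 9.36 and 9.59 in the 8 week pools, and 9.25 and 9.81 in the control pools. Its pools overlapped in every comparison, with a change of −0.06 ± 0.16 at 8 weeks (standard error, limma, adjusted p = 0.837). The second (1421283_at) read 7.97 and 8.25, 7.68 and 7.67, and 7.67 and 8.25 in the female and male pools of 1 week, 8 weeks and control. There the male pool was above the female pool at 1 week and in controls, and level with it at 8 weeks. The third (1421282_at) had 7.28 and 6.60 in the 8 week pools and 7.22 and 7.51 in the control pools. On the last 2 the change at 8 weeks was −0.29 and −0.43 (limma, adjusted p = 0.405 and 0.437). Between male pools it was −0.58 and −0.92, and between female pools 0.0078 and 0.06.

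Bmp7, a kidney and eye morphogen whose mature protein is closely related to that of Bmp6, was near the lower end of the scale. Its brightest probe set (1435479_at) read 5.43 and 5.64 in the female and male 1 week pools, 4.08 and 5.69 in the 8 week pools, and 5.61 and 5.32 in the control pools. The female 8 week pool alone was low, just above the floor, and the change at 8 weeks was −0.58 ± 0.47 (standard error, limma, adjusted p = 0.498). It was 0.24 without that pool, 0.021 without the female control, −1.40 without the male 8 week pool and −1.18 without the male control. With the floor at the 40th percentile the Bmp7 change was −0.028 against control and −0.099 against 1 week. On the second probe set (1418910_at), too dim for the fit, the female 8 week pool was at the floor as well, with 3.95 and 4.68 at 8 weeks and 5.06 and 4.46 in controls. The third (1432410_a_at) lay at the floor on all 6 arrays.

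After 1 week of activation no ligand stood apart from controls. Limma called 0 of 27022 probe sets, 0%, and 0 members, and 0 of the 11 members had an unadjusted p below 0.05, beside 5.50% of all probe sets. The changes of Bmp2 (−0.06), Bmp4 (−0.12), Bmp5 on its brightest probe set (−0.05), Bmp6 (−0.15) and Bmp7 (0.07) had limma adjusted p-values of 0.986 to 0.999. The 95% intervals reached −0.53 to 0.29 for Bmp4, −0.68 to 0.38 for Bmp6 and −0.41 to 0.28 for Bmp2. No member moved by 1.5-fold in both sexes, beside 0.644% of all probe sets higher and 0.899% lower.

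Set against 1 week, the same 8 week pools had the higher Bmp2. The change was 0.60 ± 0.13 (standard error, 95% interval 0.26 to 0.95), with 0.61 in females and 0.60 in males, and the groups did not overlap (limma, adjusted p = 0.153, unadjusted p = 0.00686). Bmp2 was the 1 member probe set past 1.5-fold in both sexes here, beside 2.72% of all probe sets higher and 4.27% lower. Bmp4 had a fitted change of −0.46 ± 0.16 (standard error, limma, adjusted p = 0.238), −0.65 between female and −0.27 between male pools, with no overlap between the groups. That of Bmp6 was −0.56 ± 0.20 (standard error, limma, adjusted p = 0.251). Leaving out the female 1 week pool gave −0.28 for Bmp4, and leaving out the male 1 week pool −0.63. Leaving out the male 8 week pool gave −0.27 for Bmp6, and leaving out the female 8 week pool −0.86. The Bmp6 pools overlapped, since the female 8 week pool (9.75) was just above the male 1 week pool (9.74). On the second Bmp5 probe set (1421283_at) the groups did not overlap, at −0.43 (limma, adjusted p = 0.307). The change there was −0.28 between female and −0.58 between male pools. On 1455851_at and 1421282_at the Bmp5 pools overlapped, with changes of −0.02 and −0.28. Limma called 0 of 27022 probe sets, 0%, and 0 members. With 5000 probe sets, 18.5%, at an unadjusted p below 0.05, the 3 members at that level were Bmp2, Bmp4 and Bmp6.

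With both durations pooled, the 4 transgenic pools against the 2 control pools gave −0.35 for Bmp4 (limma, adjusted p = 0.359), −0.43 for Bmp6 (0.377) and 0.24 for Bmp2 (0.432). The groups overlapped for all 3 genes, and limma called 0 of 27022 probe sets, 0%, in that comparison. These comparisons share their control pools and are not independent of each other.

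**Figure D3:**
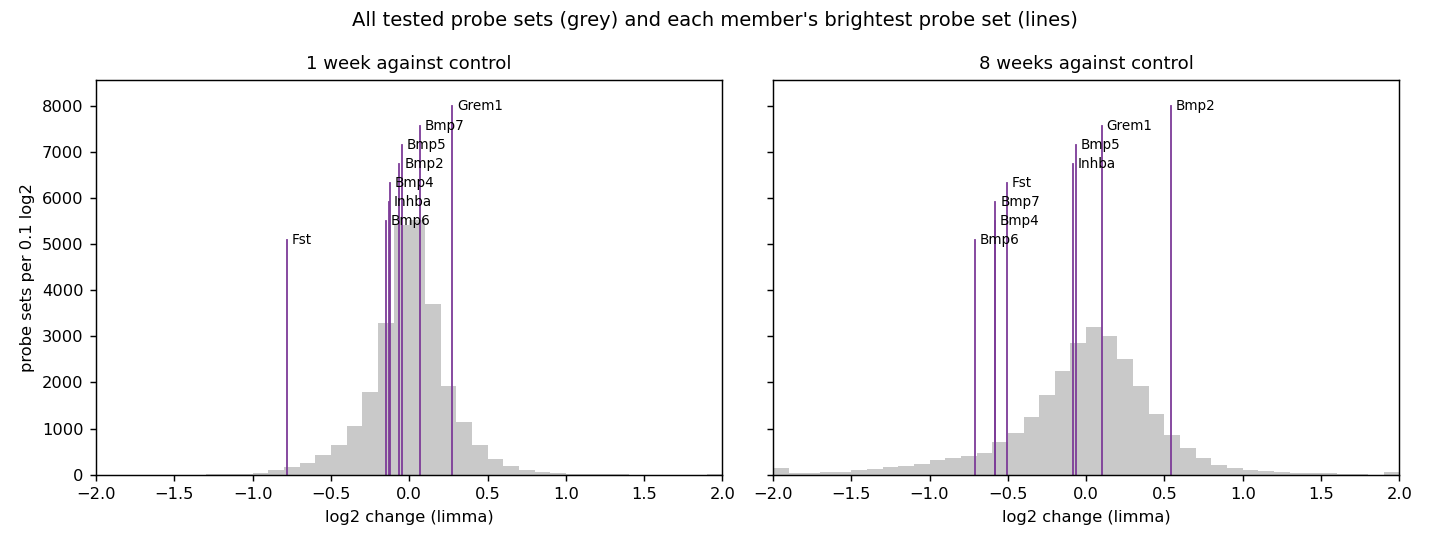
Number of tested probe sets (vertical axis) per step of 0.1 in log2 change (horizontal axis) for 1 week and 8 weeks against control. The end bars also hold changes beyond 2 log2 units. Lines, whose height carries no value, mark the brightest probe set of each tested member. At 1 week most members lie in the central peak and Fst lies at −0.78. At 8 weeks Bmp6, Bmp4, Bmp7 and Fst lie from −0.71 to −0.51 and Bmp2 at 0.54.

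Among the antagonists follistatin had the widest spread of any member. Fst binds activins nearly irreversibly and BMPs more weakly. Its brightest probe set (1434458_at) read 6.23 and 7.61 in the female and male 1 week pools, 6.50 and 7.88 in the 8 week pools, and 6.28 and 9.12 in the control pools. The male pool was above the female pool in every group, and the male control was the highest of all. The second probe set (1421365_at) read 6.75 and 7.10, 7.11 and 7.02, and 6.88 and 8.00 in the same order. It too had its highest value in the male control, while the 8 week female and male pools were nearly level.

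The difference between female and male control pools, female minus male, was −2.85 and −1.12 on the log2 scale on the 2 Fst probe sets. Of all tested probe sets, 99.8% and 95.2% had a smaller difference in size between these 2 pools. At 1 week the Fst differences were −1.37 and −0.35, and at 8 weeks −1.38 and 0.09. The share of probe sets with a smaller difference was 97.35% and 60.9% at 1 week, and 96.1% and 16.4% at 8 weeks. On the brightest probe set the change against control was −0.78 ± 0.41 at 1 week and −0.51 ± 0.41 at 8 weeks (standard error, limma, adjusted p = 0.931 and 0.499). Without the male control pool these changes were −0.044 and 0.23, and without the female control pool −1.52 and −1.24. Leaving out the female or male 8 week pool gave −0.87 and −0.14 at 8 weeks, and leaving out the male 1 week pool gave −0.41 at 1 week. The change in females minus that in males was 1.47 and 0.99 on the 2 probe sets, with limma unadjusted p = 0.0111 and 0.0409, neither of which passed (adjusted p = 1.00 for both). The interaction was called for 0 of 27022 probe sets, 0%, and 636, 2.35%, had a limma unadjusted p below 0.05. That model took both durations together and had 1 control pool of each sex. Its spread was therefore the difference between the 1 week and 8 week pools of a sex. These p-values hold no spread between control pools. The male control is the only pool labelled with the transactivator alone, and its sex, its genotype label and its being a single pool cannot be told apart here.

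**Figure D4:**
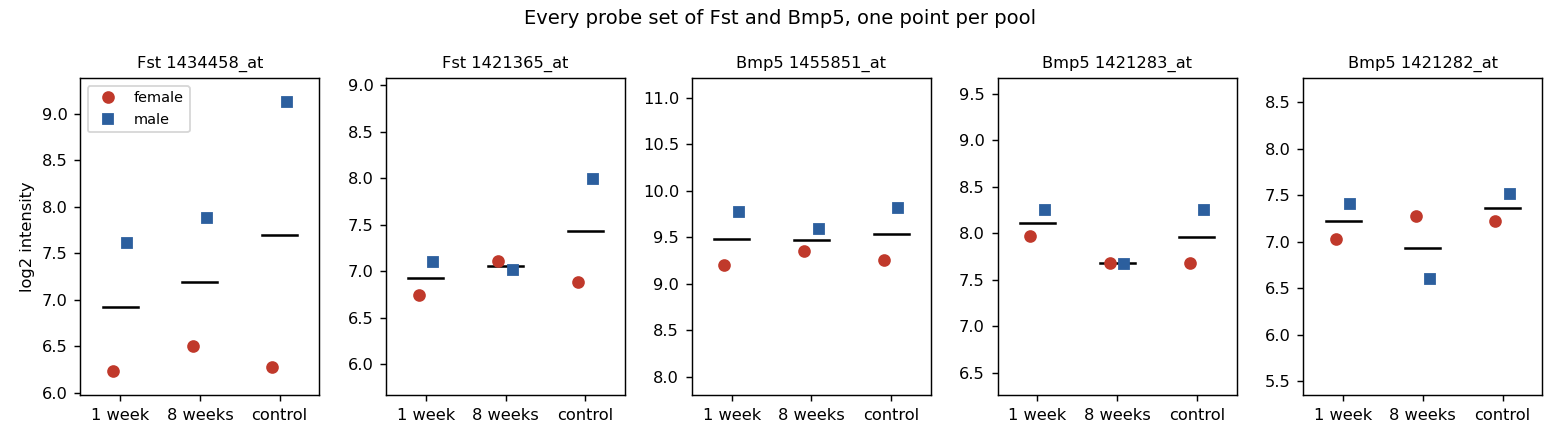
Log2 intensity (vertical axes, each spanning the same number of log2 units) of the 2 Fst and 3 Bmp5 probe sets in the 1 week, 8 week and control pools. Circles are female and squares male pools, and bars are group means. The male control is the highest pool on both Fst probe sets, and the Bmp5 probe sets differ in the male 8 week pool.

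Grem1, which binds Bmp2 and Bmp4 and keeps them from their receptors, was dim. It read 5.06 and 5.77 in the female and male 1 week pools, 5.21 and 5.27 in the 8 week pools, and 4.95 and 5.33 in the control pools. All 3 groups overlapped, with changes of 0.27 ± 0.20 at 1 week and 0.10 ± 0.20 at 8 weeks (standard error, limma, adjusted p = 0.953 and 0.794). At 1 week it was 0.030 without the male 1 week pool and 0.52 without the female one. The 95% interval at 8 weeks ran from −0.41 to 0.61, so a higher level by 1.5-fold lay within what these arrays could not tell from no difference.

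Noggin and chordin, which hold BMP ligands away from their receptors during embryonic patterning, were below the level tested. Nog read 4.83 and 4.43 in the female and male 1 week pools, 4.19 and 4.53 in the control pools, and lay at the floor of 3.95 in both 8 week pools. Chrd read 5.31 and 5.04 in the female and male 1 week pools, 5.31 and 4.72 in the 8 week pools, and 4.78 and 4.31 in the control pools. For Nog the 8 week pools were the lowest of the 6, as upper limits, and for Chrd both 1 week pools were above both controls while the male 8 week pool lay below the female control. Signals this low were within about 1.4 log2 units of the floor, and neither gene was in the fit. With no filter on dim probe sets, limma called 0 of all 16 member probe sets, with a smallest adjusted p of 0.6945 at 1 week and 0.163 at 8 weeks against control.

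Inhba, whose product follistatin binds in the form of activin A, gave 5.01 and 5.35 in the female and male 1 week pools, 5.12 and 5.33 in the 8 week pools, and 5.36 and 5.26 in the control pools on its tested probe set (1422053_at). The 6 pools lay within 0.35 log2 units, the narrowest range of any tested member. Its change at 8 weeks was −0.08 ± 0.16 (standard error, 95% interval −0.51 to 0.35, limma, adjusted p = 0.794). The second probe set (1458291_at) was at the floor on 3 of the 6 arrays.

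The rest of the pathway was read from lists at 1 probe set per gene. At 8 weeks against control no listed gene passed: 0 of 5 tested other BMP and GDF ligands, 0 of 2 activin and inhibin subunits, 0 of 15 other extracellular BMP modulators, 0 of 11 receptors and co-receptors, 0 of 6 BMP Smads and 0 of 7 BMP targets. Median log2 changes at 8 weeks were 0.19, −0.43, 0.13, −0.29, −0.24 and 0.03 in that order, beside 0.03 over all tested probe sets. Past 1.5-fold in both sexes at 8 weeks among tested genes were 2 of the targets, in opposite directions. Over all probe sets, 3.53% were higher and 4.91% lower by this count. Id4, an inhibitor of basic helix-loop-helix factors, had 7.71 and 8.50 in the female and male 8 week pools and 9.09 and 9.18 in the control pools, a change of −1.03 (limma, adjusted p = 0.09997). Atoh8, a transcription factor induced by BMP signals in endothelium, had 6.50 and 5.75 at 8 weeks and 5.89 and 4.92 in controls, a change of 0.72 (limma, adjusted p = 0.204).

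Against 1 week, the 8 week pools were lower in both sexes by at least 1.5-fold for 3 tested genes of the lists. Over all probe sets, 4.27% were lower and 2.72% higher by this count. Tll2, which was too dim for the fit, was lower in this way too. Inhbb, the activin B subunit, had 7.59 and 7.47 in the female and male 8 week pools and 8.46 and 8.34 in the 1 week pools, a change of −0.87 (limma, adjusted p = 0.126). The type 1 receptor Bmpr1b had 5.37 and 5.68 at 8 weeks and 6.27 and 7.03 at 1 week, a change of −1.12 (limma, adjusted p = 0.179), and Id4 stood at −0.91 (0.161). Tll2, which encodes a tolloid-like metalloprotease, had 3.95 (the floor) and 4.38 in the female and male 8 week pools, 5.27 and 5.20 in the 1 week pools, and 4.85 and 5.08 in the control pools, so that it was past 1.5-fold lower in both sexes at 8 weeks against control as well. At 1 week against control, 0 of the 46 tested genes of these 6 lists passed and 0 moved by 1.5-fold in both sexes. Over all probe sets, 0.644% were higher and 0.899% lower by that count.

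For the 3 members whose brightest tested probe set spanned at least 1 log2 unit, the genes of most similar pattern over the 6 arrays were read off as a description. Bmp6 was most like Tnfrsf1a (Pearson r = 0.997), Bclaf1 (0.997) and Git2 (0.996). Fst was most like Rassf8 (0.997), Vkorc1l1 (0.996) and Sirt1 (0.994), and Bmp7 most like Dgkz (0.992), Tspoap1 (0.985) and Tmem161a (0.985). Over 6 arrays of one normalization high values were not confined to the named genes. Of 12616 genes, 354 were above r = 0.9 with Bmp6, 383 with Fst and 77 with Bmp7. How many came as close as the named genes was not counted. Each gene named as similar had a smaller range over the arrays than its member. The range was 0.34 log2 units for Tnfrsf1a and 0.69 for Rassf8, beside 1.22 for Bmp6 and 2.89 for Fst.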

How the data were processed

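The authors deposited 1 intensity per probe set, linear and never below 10, for 45037 probe sets. Their summary and scaling steps are not given in the sources used here. Biotin was the label, per the labels' protocols. From these intensities the 6 arrays were quantile normalized, raised to a floor at the 20th percentile and taken to log2. Probe sets above the 40th percentile were fitted with limma 3.58.1 (R 4.3.3), with group and sex as terms. This left 2 residual degrees of freedom (prior 2.77), and p-values were adjusted by Benjamini-Hochberg over all probe sets fitted. A model of transgene, sex and their interaction tested the sexes against each other. Each sex had 1 pool a group, so the spread mixed pool differences with differences in response between the sexes, and the number of arrays limits every comparison. Changes of at least 1.5-fold (log2 0.58) in the same direction in both sexes were counted as well. Alternatives were other scalings, floors and filters, log2(value + 16), other probe sets or 1 value per gene, no sex term, other moderation and leaving out each pool. Every member was named at every probe set, and pathway genes were named where they passed or moved by 1.5-fold in both sexes. Members, lists and processing were chosen with earlier results of these data known. Figures were drawn with matplotlib 3.10.9. Gene symbols came from the platform annotation.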

Additional observations from a re-analysis of the deposited data

Results flagged for a closer look

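For 2 tested probe sets the female pools stood on one side of control and the male pools on the other, with each sex on the same side at both durations. Both durations were set against the same control pool of each sex, so agreement between them was not independent. For Bmp7 (1435479_at) the change was −0.18 and −1.53 in females and 0.32 and 0.37 in males at 1 and 8 weeks, and the change in females minus that in males was −1.20 in limma (adjusted p = 1.00). For Inhba (1422053_at) it was −0.35 and −0.24 in females and 0.09 and 0.07 in males, with a difference of −0.38 (adjusted p = 1.00). On the dimmer Bmp7 probe set (1418910_at), left out of the fit, the sexes were also on opposite sides, but the other way round at 1 week: 0.38 and −1.11 in females and −0.23 and 0.22 in males. The difference did not pass in either, and at each duration alone it was not tested. With 2 pools a group, no pool could be tested as an outlier.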

How the results depend on the processing

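Of 369 alternative values for the 24 member changes, 337 kept their direction and side of the threshold, 30 changed sign and 2 newly passed. The 2 were Bmp4 and Bmp6 at 8 weeks with trend and robust moderation, so that fit called 2 members. Bmp2, Bmp4 and Bmp6 at 8 weeks, against control or 1 week, kept their signs under every alternative. With intensities as deposited, Bmp4 alone passed 1.5-fold in both sexes at 8 weeks against control, a count of 1. Against 1 week the count of 1 became 0 as deposited, with log2(value + 16), or at 2-fold. Small changes turned sign under other scalings, on another probe set or without a pool. Larger ones turned sign without a pool. These were Bmp7 at 8 weeks, against control (−0.58) or 1 week (−0.65), and Fst at 8 weeks against control (−0.51). With arrays at a common median Bmp5 stood at 0.092 at 8 weeks against control and 0.096 against 1 week. On its second probe set Bmp5 stood at 0.15 at 1 week. As deposited, Bmp7 at 1 week was −0.0056, Grem1 at 8 weeks −0.087, and Inhba at 8 weeks against 1 week −0.090. Leaving out each pool in turn gave these ranges. At 1 week against control they were −0.13 to 0.0081 for Bmp2, −0.30 to 0.049 for Bmp4, −0.13 to 0.044 for Bmp5, −0.35 to 0.054 for Bmp6, −0.53 to 0.67 for Bmp7 and −0.32 to 0.058 for Inhba. At 8 weeks against control they were −0.23 to 0.11 for Bmp5, −1.40 to 0.24 for Bmp7, −1.24 to 0.23 for Fst, −0.14 to 0.34 for Grem1 and −0.27 to 0.11 for Inhba. Against 1 week they were −0.19 to 0.15 for Bmp5, −1.47 to 0.17 for Bmp7, −0.096 to 0.64 for Fst, −0.42 to 0.069 for Grem1 and −0.094 to 0.19 for Inhba. The cause was not tested. Over all probe sets the 161 calls at 8 weeks against control became 0 without the sex term, which pairs the pools, 0 with no filter or with only the arrays compared, and 337 to 705 under the other scalings, floors and filters and 1 value per gene.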
